A study of Homo sapiens with 18 samples.

Results

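Tight junctions seal the gap between neighbouring epithelial cells near their apical edge. Claudins and occludin are the membrane-spanning proteins of the junction, claudins line its pores and set which ions pass, and the cytoplasmic plaque proteins ZO-1 and cingulin tie the strands to the actomyosin cytoskeleton. Claudins 3, 4 and 7 are known as abundant proteins of serous ovarian carcinoma, whereas the normal ovarian surface carries little of them. The genes described here are 9 of the 12853 genes with expression values: the claudin genes CLDN1, CLDN3, CLDN4, CLDN6, CLDN7 and CLDN12, OCLN (occludin), TJP1 (ZO-1) and CGN (cingulin). They were chosen by name, through the gene symbols of the table, and all 9 were found.

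RNA-seq was performed on 6 ovarian cancer cell lines, with 3 libraries of each, 18 in all. PEO1 and PEO4 came from 1 patient with high-grade serous ovarian cancer (HGSOC) after platinum chemotherapy, PEO1 while the disease still responded and PEO4 once it was clinically resistant. The ascites of another HGSOC patient gave the PEA lines, of which PEA1 predates platinum treatment and PEA2 represents the disease that had returned resistant. A2780, which the labels call endometrial/ovarian, is the sensitive parent of CP70, which was made resistant in vitro. All lines were grown in RPMI-1640 with glutamine and fetal bovine serum, and the labels give no drug treatment of these libraries. Each resistant line was compared with its sensitive partner, giving the A2780 pair (CP70 against A2780), the PEA pair (PEA2 against PEA1) and the PEO pair (PEO4 against PEO1). Each pair is 1 resistant line and 1 sensitive line, and nothing in the labels says whether the 3 libraries of a line came from separate cultures, so p-values measure only the spread between libraries.

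Values are the deposited log2 CPM, the reads of a gene scaled to the depth of its library. Differences between lines are log2 fold changes (log2FC, resistant minus sensitive) from limma, with p-values adjusted over all 12853 genes. A gene is said to have risen or fallen where its adjusted p was below 0.05, and is called differentially expressed where its log2FC was also beyond 2 in either direction. The reads on listed genes ran from 1344098 in a PEA1 library to 7067336 in a PEO1 library. A line is described as at the detection floor for a gene where its libraries held on average no more than 3 reads of it, which corresponds to between 0.452 and 2.18 CPM. A fold against a line at the floor is given as a lower bound, computed from the lowest library of the other line, and the fitted log2FC then depends on the reads added before the logarithm. No fold is given where both lines were at the floor.

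The labelled cell type was checked against marker genes. All 5 epithelial markers (EPCAM, CDH1, KRT8, KRT18 and KRT19) were above the floor in PEA2, PEO1 and PEO4, where their summed level lay between 2693 and 3267 CPM in every library. CDH1 (E-cadherin, the adhesion protein of epithelial cells) and KRT19 were at the floor in A2780, CP70 and PEA1. Summed epithelial markers reached 153 to 199.7 CPM in PEA1, 88.9 to 95.8 CPM in CP70 and 2.24 to 3.13 CPM in A2780. None of the 6 ovarian serous markers (PAX8, WT1, MUC16, MSLN, FOLR1 and SOX17) rose above the floor in A2780 or CP70, whereas 4 did in PEA1, 6 in PEA2, 4 in PEO1 and 5 in PEO4. The labelled ovarian identity was thus not visible in the A2780 pair through these genes.

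**Figure D1:**
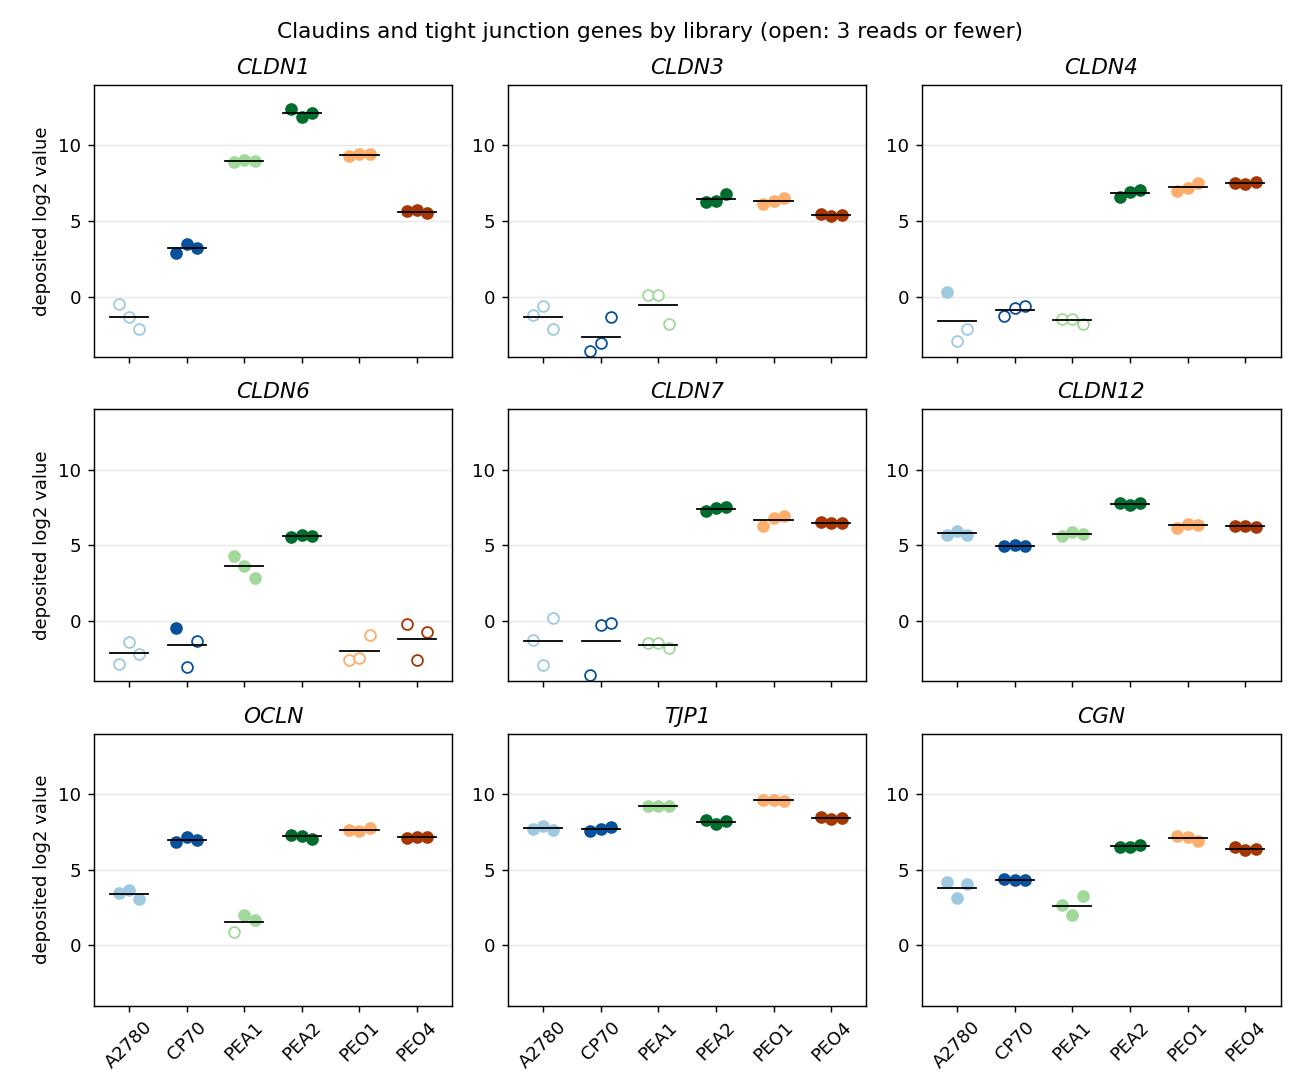
Deposited log2 CPM (vertical axis) of each of the 9 genes in the 3 libraries of each cell line (horizontal axis). Points are libraries, open points hold 3 reads or fewer, and horizontal lines are line means. CLDN3, CLDN4 and CLDN7 sit at the bottom in A2780, CP70 and PEA1 and above 5 in PEA2, PEO1 and PEO4, while TJP1 stays between 7.58 and 9.63 in all 18 libraries.

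Across the 6 lines, 5 of the 6 claudins and OCLN spanned a wider range than the plaque proteins, and CLDN12 a narrower one than CGN. The line means of CLDN1 ranged over 13.49 log2 units, those of CLDN3, CLDN4 and CLDN7 over 9.14, 9.11 and 9.0, those of CLDN6 over 7.72 and those of OCLN over 6.14. CGN ranged over 4.49, CLDN12 over 2.77 and TJP1 over 1.87, beside a median of 1.88 over all 12853 genes. In lines at the floor, these ranges depend on the reads added before the logarithm.

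CLDN1 was the one member whose libraries did not overlap between any neighbours in the order of lines, which ran PEA2, PEO1, PEA1, PEO4, CP70 and A2780 from high to low. For CLDN3, the order was PEA2, PEO1, PEO4 and then the 3 lines at the floor, and PEA2 and PEO1 overlapped. For CLDN7, it was also PEA2, PEO1, PEO4 and then the same 3 lines, with PEO1 and PEO4 overlapping. CLDN4 was highest in PEO4, followed by PEO1 and PEA2, and each of these neighbours overlapped. CLDN6 was above the floor in PEA2 and PEA1 alone. OCLN and CGN shared 1 order (PEO1, PEA2, PEO4, CP70, A2780, PEA1), in which PEA2 and PEO4 overlapped for both genes, PEO4 and CP70 for OCLN, and A2780 and PEA1 for CGN. CLDN12 ran PEA2, PEO1, PEO4, A2780, PEA1 and CP70, with overlap of PEO1 with PEO4 and of A2780 with PEA1. TJP1 followed another order, PEO1, PEA1, PEO4, PEA2, A2780 and CP70, where the last 2 overlapped.

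The PEA pair showed the broadest change. From PEA1 to PEA2, 8 of the 9 members rose and 1, TJP1, fell. Over all genes of the table, 32.5% rose and 29.4% fell in this pair. CLDN1, CLDN3, CLDN4, CLDN7, OCLN and CGN, 6 of 9, were differentially expressed, beside 14.1% of all genes. The median log2FC was 3.93 over the members, also with the genes at the floor set to their bound, and 0.01 over all genes. In bulk RNA, fewer cells of a type and less RNA per cell cannot be told apart.

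CLDN4 and CLDN7 had no read in any PEA1 library. The 3 PEA2 libraries held 182, 414 and 283 reads of CLDN4 and 284, 613 and 404 reads of CLDN7. In PEA2, CLDN4 reached 6.61, 6.90 and 7.02 log2 CPM and CLDN7 reached 7.25, 7.46 and 7.53. Both genes were therefore detected throughout PEA2 and nowhere in PEA1, at least 44.6-fold higher for CLDN4 and at least 69.5-fold higher for CLDN7 (adjusted p = 3.63e-11 and 1.29e-09). CLDN3, a barrier-forming claudin whose gene lies next to CLDN4, had 1, 1 and 0 reads in PEA1 and 145, 273 and 244 in PEA2. Its 3 PEA2 libraries, at 6.28, 6.30 and 6.80 log2 CPM, lay far above those of PEA1, a rise of at least 35.5-fold (adjusted p = 1.01e-09).

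CLDN1, a barrier-forming claudin that is indispensable for the skin barrier, was already abundant in PEA1, at 8.90, 9.05 and 8.97 log2 CPM. In PEA2 it stood at 12.4, 11.88 and 12.13 log2 CPM. The lines did not overlap, and CLDN1 rose 8.96-fold (log2FC 3.16, SE 0.25, adjusted p = 1.82e-09). CLDN6, a claudin of embryonic epithelia, had 27, 17 and 12 reads in PEA1 and 87, 174 and 105 in PEA2. It rose by a log2FC of 1.99 (SE 0.68, adjusted p = 0.0159), just short of the limit for differential expression, and without the third PEA1 library the adjusted p was 0.0757. CLDN12, a claudin that lacks the PDZ-binding tail of the classic members, rose from 5.62, 5.91 and 5.75 to 7.79, 7.64 and 7.79 log2 CPM (log2FC 1.98, SE 0.11, adjusted p = 5.86e-12). CLDN6 and CLDN12 were the 2 members that rose without reaching a log2FC of 2, and CLDN6 passed that limit without the first or second PEA1 library or the first PEA2 library, CLDN12 without the second PEA1 or second PEA2 library. With voom weights, 7 members in place of 6 were differentially expressed in the PEA pair. Over all genes, 1012 higher and 800 lower were then differentially expressed, beside 1019 and 790.

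OCLN had 2, 5 and 5 reads in PEA1, at 0.86, 1.97 and 1.66 log2 CPM. PEA2 held 7.32, 7.25 and 7.02 log2 CPM of OCLN. PEA1 was the lowest of the 6 lines for this gene, and the rise to PEA2 was 52.1-fold (log2FC 5.70, SE 0.20, adjusted p = 1.4e-14). CGN rose from 2.63, 1.97 and 3.25 to 6.52, 6.49 and 6.62 log2 CPM, a 15.3-fold change (log2FC 3.93, SE 0.26, adjusted p = 7.98e-11). TJP1 moved the other way, from 9.23, 9.22 and 9.21 to 8.27, 8.0 and 8.24 log2 CPM. The lines did not overlap, and TJP1 fell 2.07-fold (log2FC -1.05, SE 0.09, adjusted p = 6.06e-09).

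**Figure D2:**
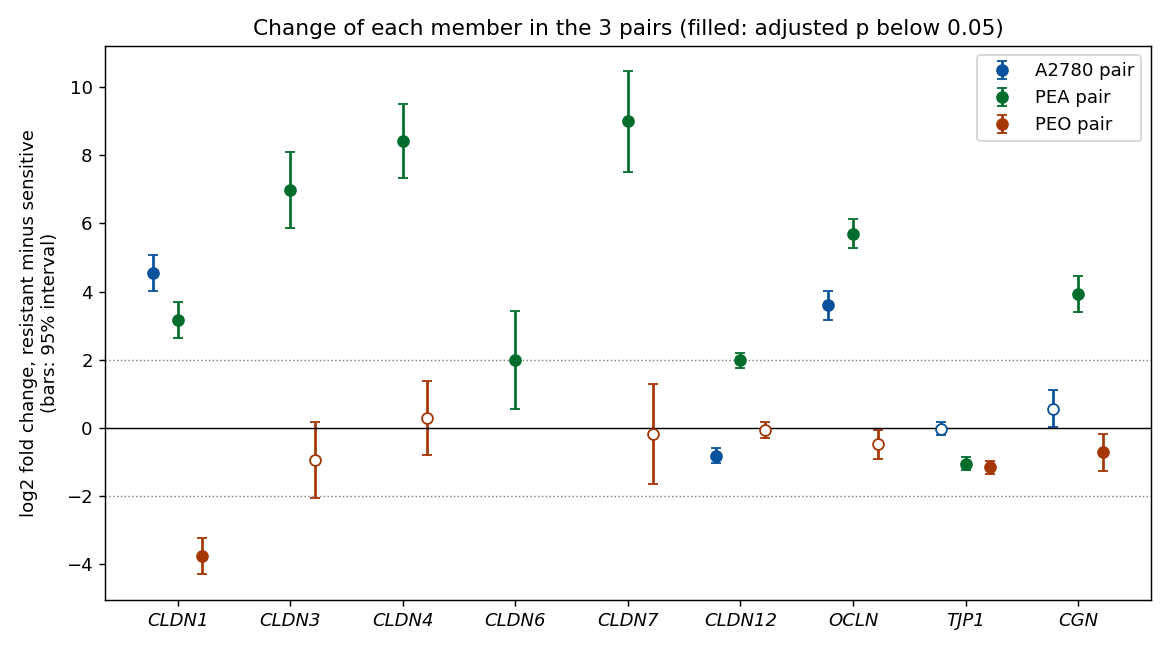
Log2FC (vertical axis, resistant minus sensitive, with 95% interval) of the 9 genes (horizontal axis) in the A2780, PEA and PEO pairs. Filled points have an adjusted p below 0.05, dotted lines mark a log2FC of 2 in either direction, and genes at the floor in both lines of a pair are not drawn. In the PEA pair 8 genes lie above 0, with TJP1 alone below it, and CLDN1 lies above 0 in the A2780 and PEA pairs and at -3.77 in the PEO pair.

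The regions upstream of the 4 members that had at most 5 reads in any PEA1 library and rose in PEA2 are shown with the E-box CACCTG, which reads as CAGGTG on the other strand and is the element bound by the ZEB and SNAI repressors of epithelial genes. Each run holds the 250 bases before a RefSeq transcription start (sequence table on GRCh38.p14, matched to 1 place each in GRCh37), written 5′ to 3′ on the gene's strand, with this E-box in capitals on either strand. The windows are chr7:73184601-73184850 for CLDN3 (minus strand), chr7:73245076-73245325 for CLDN4 (plus strand), chr17:7165798-7166047 for CLDN7 (minus strand) and chr5:68788124-68788373 for OCLN (plus strand), all in GRCh37.
CLDN3: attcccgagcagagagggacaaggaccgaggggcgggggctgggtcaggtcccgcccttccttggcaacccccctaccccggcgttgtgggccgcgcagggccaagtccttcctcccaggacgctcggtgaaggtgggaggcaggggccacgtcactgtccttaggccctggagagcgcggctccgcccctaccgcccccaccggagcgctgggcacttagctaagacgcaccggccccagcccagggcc
CLDN4: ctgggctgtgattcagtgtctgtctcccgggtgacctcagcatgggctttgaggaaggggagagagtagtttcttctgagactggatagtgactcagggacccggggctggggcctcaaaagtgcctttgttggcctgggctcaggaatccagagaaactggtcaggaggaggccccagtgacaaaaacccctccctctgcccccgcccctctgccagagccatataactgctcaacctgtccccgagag
CLDN7: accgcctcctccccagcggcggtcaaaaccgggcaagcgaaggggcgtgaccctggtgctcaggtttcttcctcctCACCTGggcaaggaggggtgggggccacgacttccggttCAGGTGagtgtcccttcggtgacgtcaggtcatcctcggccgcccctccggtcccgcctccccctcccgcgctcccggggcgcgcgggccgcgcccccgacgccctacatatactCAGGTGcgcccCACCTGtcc
OCLN: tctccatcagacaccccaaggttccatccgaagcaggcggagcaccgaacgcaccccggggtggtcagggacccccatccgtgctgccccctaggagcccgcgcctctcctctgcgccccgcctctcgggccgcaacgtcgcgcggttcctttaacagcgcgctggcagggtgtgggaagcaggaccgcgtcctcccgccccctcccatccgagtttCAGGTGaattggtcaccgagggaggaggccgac
The CLDN7 window held 4 of these E-boxes, beginning 174, 135, 20 and 9 bases before the start, and a second CLDN7 window (chr17:7166533-7166782) that starts further upstream held none. The OCLN window held 1, beginning 33 bases before the start, and a second OCLN window that starts further downstream held 1 at 133 bases. Of the other members, TJP1 held 1 in 1 of its windows, 88 bases before the start, and CLDN1, CLDN3, CLDN4, CLDN6, CLDN12 and CGN held none. In all, 3 of 9 members held at least 1 in 4 of 14 windows, beside 17.49% of 35116 RefSeq promoter windows of 250 bases. The grainyhead-like consensus AACCGGTT was in none of the 14 windows and in 0.1168% of all. These matches describe letters in a window, not sites in use.

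The annotated spans of CLDN3 (chr7:73183327-73184600, minus strand) and CLDN4 (chr7:73213872-73247020, plus strand) lie 29271 bases apart in GRCh37. The CLDN4 span begins upstream of the RefSeq start used above (chr7:73245326). CLDN7 (chr17:7163222-7167302, minus strand) overlaps ELP5 on the opposite strand, and CLDN6 (chr16:3064713-3070072, minus strand) overlaps TNFRSF12A on the opposite strand. CLDN12 (chr7:90013035-90142716, plus strand) overlaps GTPBP10 and CDK14 on its own strand. The library kit keeps strand, but whether strand was used in counting is not given in the sources used here, so reads in these overlaps are of uncertain origin.

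CLDN1 (chr3:190023496-190040235, minus strand) lies 94 bases from CLDN16, a claudin known for magnesium reabsorption in the kidney. CLDN16 and CLDN11 were the only listed genes among 16 other claudins. In PEA1, CLDN16 stood at 8.52, 8.63 and 8.85 log2 CPM, close to CLDN1, and in PEA2 at 5.08, 4.28 and 4.90. CLDN16 thus fell (log2FC -3.91, adjusted p = 3.12e-10) in the pair in which its neighbour CLDN1 rose. In the A2780 pair both rose, CLDN16 from 0 reads in all 3 A2780 libraries to 19, 11 and 6 in CP70, at least 1.18-fold (adjusted p = 3.67e-10). In the PEO pair both fell, CLDN16 by a log2FC of -1.34 (adjusted p = 0.000602). CLDN11, the claudin of myelin and Sertoli cells, rose in the PEA pair (log2FC 1.17, adjusted p = 0.0122) and fell in the PEO pair (log2FC -2.37, adjusted p = 4.69e-05).

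In the A2780 pair, 4 of the 9 members, CLDN3, CLDN4, CLDN6 and CLDN7, were at the floor in both lines, with no library above 4 reads, so no fold is given. Of the 5 members measured, CLDN1 and OCLN rose (22.2% of all genes rose), CLDN12 fell (17.7% fell), and CLDN1 and OCLN were differentially expressed (9.06% of all genes). The median log2FC of these 5 was 0.57, beside -0.02 over all genes. CLDN1 had 2, 1 and 0 reads in A2780 and 45, 47 and 34 in CP70. It rose at least 5.50-fold (adjusted p = 1e-11), to 2.90, 3.49 and 3.18 log2 CPM, which remained the lowest level outside A2780. OCLN rose from 3.47, 3.62 and 3.05 to 6.85, 7.13 and 6.95 log2 CPM, 12.1-fold (log2FC 3.60, SE 0.20, adjusted p = 1.02e-11). CP70 thereby overlapped PEO4 in its OCLN level, while its CLDN3, CLDN4 and CLDN7 stayed at the floor.

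CLDN12 fell from 5.70, 5.96 and 5.69 to 4.95, 5.01 and 4.96 log2 CPM in the A2780 pair (log2FC -0.81, SE 0.11, adjusted p = 3.59e-06). CGN lay at 4.15, 3.11 and 4.03 in A2780 and at 4.36, 4.31 and 4.33 in CP70. The lines did not overlap, but the difference did not pass (log2FC 0.57, SE 0.26, adjusted p = 0.0844), and it passed without the first A2780 library (adjusted p = 0.0359) or without the second or the third PEA1 library (0.0371 and 0.0405) and with voom weights (0.0306). TJP1 stood at 7.69, 7.86 and 7.65 in A2780 and at 7.58, 7.69 and 7.85 in CP70, with overlap (log2FC -0.02, 95% interval -0.22 to 0.17, adjusted p = 0.861).

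In the PEO pair, 3 of the 8 members measured fell (CLDN1, TJP1 and CGN) and 0 rose, beside 21.9% and 19.6% of all genes. At an unadjusted p under 0.05, OCLN was also lower and 0 members were higher. CLDN1 was the one member differentially expressed, beside 6.22% of all genes. The median log2FC of the 8 was -0.60, beside -0.02 over all genes. CLDN1 stood at 9.32, 9.43 and 9.41 log2 CPM in PEO1 and at 5.63, 5.72 and 5.51 in PEO4. This 13.6-fold fall (log2FC -3.77, SE 0.25, adjusted p = 5.57e-10) ran opposite to the rise of CLDN1 in the other pairs.

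TJP1 fell from 9.63, 9.61 and 9.51 to 8.5, 8.34 and 8.41 log2 CPM in the PEO pair (log2FC -1.16, SE 0.09, adjusted p = 4.51e-09). CGN fell from 7.24, 7.16 and 6.90 to 6.51, 6.27 and 6.37 (log2FC -0.72, SE 0.26, adjusted p = 0.0289). This call was lost without the first or second PEO1 library (adjusted p = 0.094 and 0.0773) and without the second or the third PEO4 library (0.09 and 0.0672), and with no trend of the variance (0.0527). OCLN lay at 7.61, 7.55 and 7.75 in PEO1 and at 7.12, 7.17 and 7.17 in PEO4, without overlap (log2FC -0.48, SE 0.20, adjusted p = 0.0611). It passed without the first or second PEA1 library (adjusted p = 0.00838 and 0.0293), with 2 reads added (0.0193), with voom weights (0.000239) and, narrowly, without the third A2780 library (adjusted p = 0.05 after rounding).

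The claudins that were at the floor in PEA1 and above it in PEA2 were also well above the floor in both PEO lines. CLDN3 stood at 6.14, 6.35 and 6.53 log2 CPM in PEO1 and at 5.46, 5.31 and 5.41 in PEO4, without overlap (log2FC -0.95, 95% interval -2.07 to 0.18, adjusted p = 0.172), and CLDN3 passed with 2 reads added and with voom weights (0.0143 and 3.49e-05). CLDN4 stood at 6.95, 7.21 and 7.49 in PEO1 and at 7.54, 7.47 and 7.55 in PEO4 (log2FC 0.30, 95% interval -0.78 to 1.38, adjusted p = 0.678). CLDN7 stood at 6.27, 6.78 and 6.95 in PEO1 and at 6.55, 6.47 and 6.46 in PEO4 (log2FC -0.17, 95% interval -1.64 to 1.30, adjusted p = 0.874). CLDN4 and CLDN7 overlapped between the lines. These intervals come from the spread within all 6 lines, and the members at the floor in other lines have wide ones.

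With the PEO pair fitted alone, 6 members changed in place of 3, while the share of all genes that changed was 50.4% in place of 41.5%. CLDN3 and OCLN were then lower in PEO4 and CLDN4 higher (adjusted p = 8.43e-06, 0.000179 and 0.0367), at the same log2FC. CLDN12 lay at 6.17, 6.42 and 6.37 in PEO1 and at 6.27, 6.30 and 6.18 in PEO4 (log2FC -0.07, 95% interval -0.29 to 0.16, adjusted p = 0.653). CLDN6 was at the floor in both PEO lines, with at most 3 reads in a library.

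The difference between pairs was tested directly. The log2FC of 8 of 9 members differed between the PEA and A2780 pairs, beside 57.5% of all genes, that of 5 of 9 between the PEO and A2780 pairs, beside 47.5%, and that of 7 of 9 between the PEO and PEA pairs, beside 58.7%. Against the PEA pair, the log2FC of CLDN1, CLDN3, CLDN4, CLDN7, CLDN12, OCLN and CGN was lower in the PEO pair by between 2.05 (CLDN12) and 9.17 (CLDN7). TJP1 fell in both of these pairs, and the difference between its log2FC was -0.11 (95% interval -0.38 to 0.16, adjusted p = 0.462).

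Levels of different claudins were compared per exonic length, as CPM per kilobase (RPKM), over the 6 member claudins with CLDN11 and CLDN16. Their summed level was 9.03 ± 0.82 RPKM in A2780 and 8.75 ± 0.469 in CP70 (SD, n = 3 for each line). It was 294 ± 15.3 in PEA1 and 1523 ± 217 in PEA2, and 360.2 ± 34.9 in PEO1 and 142 ± 3.19 in PEO4. The SD ranges of A2780 and CP70 overlapped, while the sum was higher in PEA2 than in PEA1 and lower in PEO4 than in PEO1, without overlap of the SD ranges.

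The make-up of that sum differed from line to line. CLDN12 held 90.8% ± 1.54 of the A2780 sum and 53.4% ± 1.73 of the CP70 sum, where CLDN1 held 28.7% ± 4.48. In PEA1, CLDN1 held 47.2% ± 1.93 and CLDN16 41.6% ± 3.19. In PEA2, CLDN1 alone held 82.1% ± 3.11, so that CLDN3, CLDN4 and CLDN7 together remained minor there despite their rise (4.65% ± 1.1, 1.65% ± 0.4 and 4.59% ± 0.991). PEO1 was also led by CLDN1, at 51.5% ± 3.38, ahead of CLDN3 at 17.7% ± 0.789. By this measure PEO4 had no single leading claudin, with CLDN4 at 27.5% ± 0.758, CLDN7 at 25.4% ± 0.33, CLDN3 at 23.1% ± 0.94 and CLDN1 at 9.53% ± 0.692. These shares depend on the exonic length of the annotation, which for CLDN4 (4699 bases) includes transcripts longer than the main one. That length lowers the CLDN4 share beside CLDN7 (2492 bases) and CLDN3 (1274 bases). Before division by length, PEO4 held 183 CPM of CLDN4, 90.1 of CLDN7 and 41.8 of CLDN3.

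**Figure D3:**
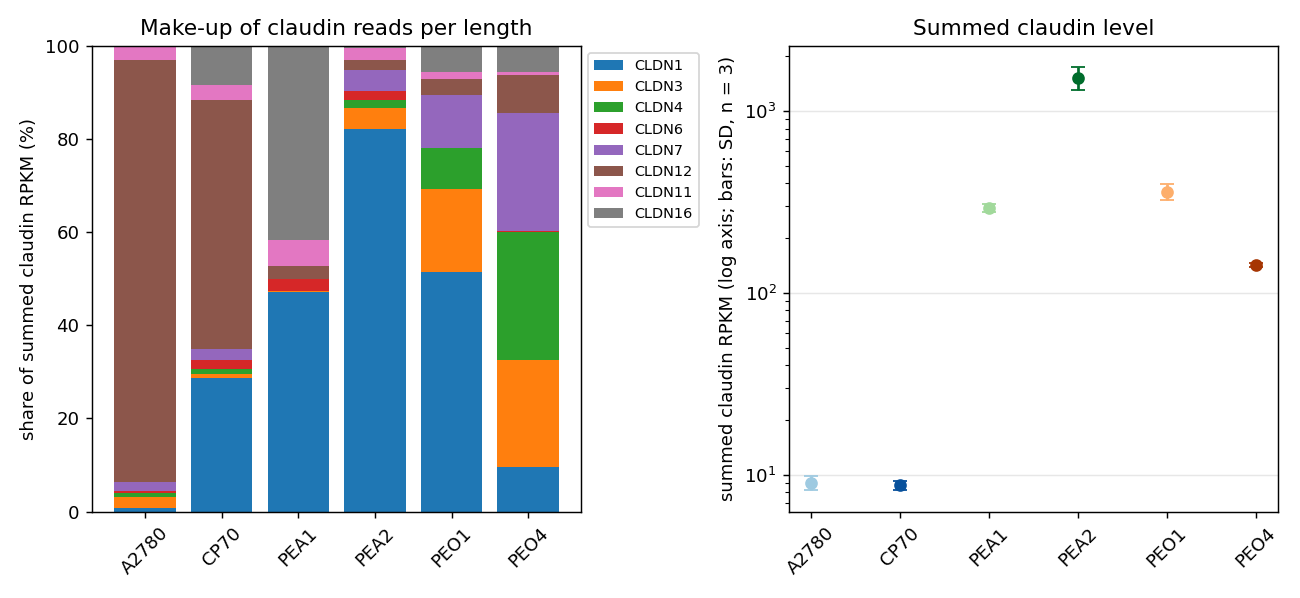
Left, mean share (%) of each of 8 claudins in the summed claudin RPKM of each line. Right, the summed claudin RPKM of each line on a log axis (mean, bars SD, n = 3). CLDN12 fills 90.8% of a small sum in A2780, CLDN1 fills 82.1% of the 1523 RPKM in PEA2, and CLDN4, CLDN7 and CLDN3 share most of PEO4.

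Among the other membrane proteins of the tight junction, 9 of 10 were listed. In the PEA pair, 6 of the 8 measured rose and 2 fell, beside 32.5% and 29.4% of all genes. Their median log2FC was 2.36, or 1.78 with genes at the floor set to their bound. MARVELD3 and MARVELD2 (tricellulin), relatives of occludin, rose, from 0 reads in PEA1 to 29, 53 and 49 for MARVELD3 (at least 7.00-fold, adjusted p = 1.38e-09) and from 3, 4 and 3 to 173, 281 and 158 for MARVELD2 (log2FC 5.01, adjusted p = 8.99e-12). ILDR2, an angulin of tricellular contacts, moved the other way, from 170, 184 and 251 reads in PEA1 to 0 in all PEA2 libraries (at least 77.2-fold lower, adjusted p = 3.99e-12). JAM2, a junctional adhesion molecule typical of endothelium, fell with it (at least 6.68-fold, adjusted p = 6.35e-07).

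In the A2780 pair, 5 of the 6 measured membrane proteins rose and 0 fell, beside 22.2% and 17.7% of all genes. At an unadjusted p under 0.05 none of these 6 was lower either. JAM2 rose from 3, 0 and 1 reads to 90, 56 and 52 (at least 9.90-fold, adjusted p = 7.89e-07). F11R (JAM-A), the epithelial junctional adhesion molecule, rose from 6, 4 and 7 reads to 116, 83 and 91 (log2FC 3.44, adjusted p = 4.37e-10). MARVELD3 passed the test (adjusted p = 0.00974) with at most 1 read in A2780 and 5, 4 and 3 in CP70. Its lower bound was 0.588-fold, so its rise is not shown by the bound. In the PEO pair, 1 of 8 measured rose and 1 fell, beside 19.6% and 21.9% of all genes. These were CXADR, the coxsackie and adenovirus receptor, which rose (log2FC 1.61, adjusted p = 3.69e-08), and ILDR2, which fell (at least 4.11-fold, adjusted p = 4.44e-05).

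The plaque and scaffold proteins were split in direction. Of the 12 listed, 4 rose and 4 fell in the A2780 pair, 6 rose and 5 fell in the PEA pair, and 2 rose and 4 fell in the PEO pair. Over all genes, 22.2%, 32.5% and 19.6% rose and 17.7%, 29.4% and 21.9% fell in the same order of pairs. The median log2FC of the list was -0.12, 0.11 and -0.07, close to -0.02, 0.01 and -0.02 over all genes. TJP3 (ZO-3), found mainly in epithelia, had no read in PEA1 and 55, 178 and 99 in PEA2 (at least 13.5-fold, adjusted p = 9.9e-11), and also rose from at most 1 read in A2780 to 15, 13 and 12 in CP70 (at least 1.83-fold, adjusted p = 1.4e-06). CGNL1 (paracingulin), the closest relative of cingulin, fell where CGN rose, from 144, 124 and 185 reads in PEA1 to 1, 6 and 6 in PEA2 (log2FC -5.92, adjusted p = 6.13e-08), and fell in the PEO pair together with CGN (log2FC -3.56, adjusted p = 8.29e-05). MAGI3, a scaffold protein, fell in both of these pairs (log2FC -2.12 and -1.11, adjusted p = 1.53e-08 and 0.000134) and rose in the A2780 pair (log2FC 1.13, adjusted p = 0.000102). PATJ, a multi-PDZ scaffold of the Crumbs complex listed as INADL, rose in the A2780 pair (log2FC 2.00, adjusted p = 7.71e-12), where AMOTL1 (angiomotin-like 1) fell (log2FC -1.88, adjusted p = 4.56e-14). AMOTL1 rose in the PEA pair (log2FC 1.72, adjusted p = 2.13e-13). AMOT (angiomotin) fell in the PEO pair by 0.95 on the log2 scale (adjusted p = 0.00885).

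Polarity proteins, which position the junction, were all listed (10 of 10). In the PEA pair 7 rose and 2 fell, beside 32.5% and 29.4% of all genes (median log2FC 0.86, or 0.30 with genes at the floor set to their bound). Of these 7, PARD6A overlapped between PEA1 and PEA2 and had a lower bound of 0.881-fold. In the A2780 pair 4 of 9 measured rose and 0 fell, also at an unadjusted p under 0.05, beside 22.2% and 17.7% of all genes. In the PEO pair 2 rose and 3 fell, beside 19.6% and 21.9% of all genes. CRB3, the epithelial Crumbs protein, rose in the PEA pair (at least 5.88-fold, adjusted p = 1.45e-06), with LLGL2, a basolateral polarity protein (log2FC 2.43, adjusted p = 3.82e-09), and PRKCI, the atypical protein kinase C iota (log2FC 1.81, adjusted p = 8.97e-11). PARD6B and PARD6A, subunits of the Par complex, rose in the A2780 pair (log2FC 2.70 and 2.49, adjusted p = 3.05e-13 and 0.000143) with LLGL2 (log2FC 1.42, adjusted p = 1.11e-05). In the PEO pair PARD6A fell (log2FC -1.77, adjusted p = 0.00345), and PARD6B and LLGL2 rose (log2FC 1.20 and 0.76, adjusted p = 1.23e-07 and 0.00524).

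**Figure D4:**
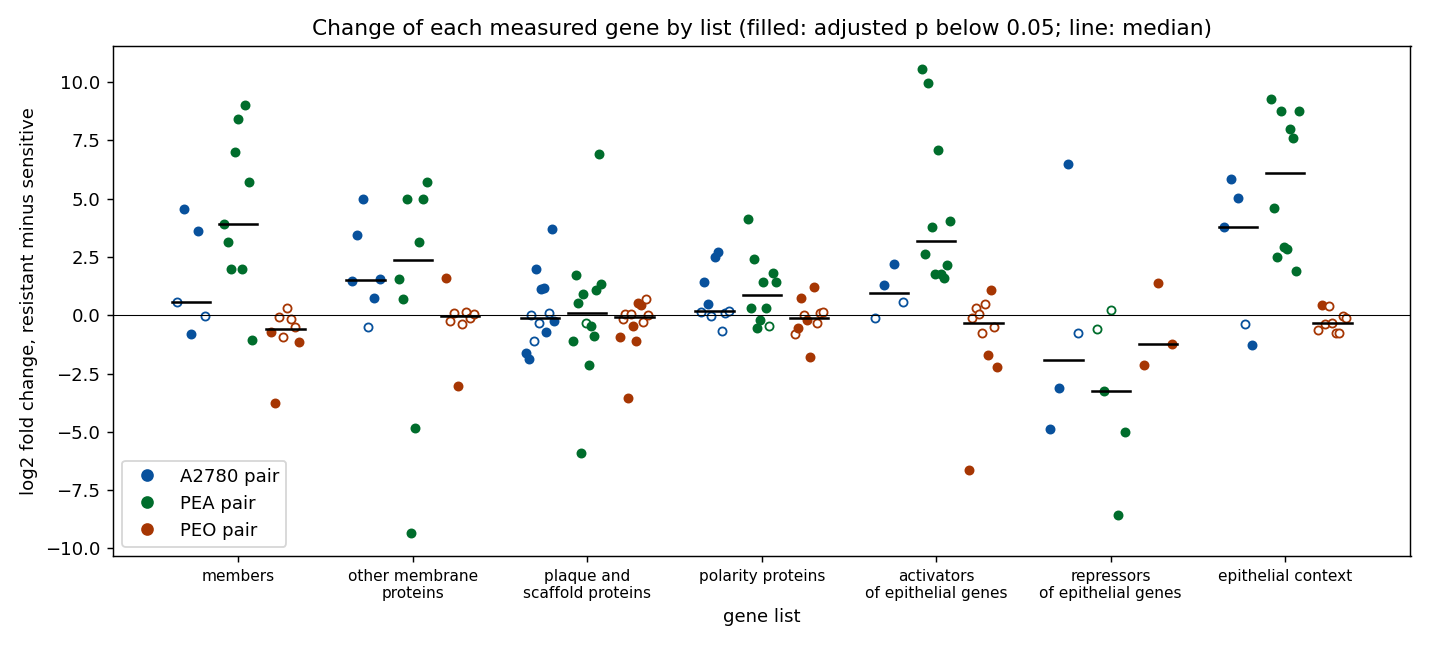
Log2FC (vertical axis, resistant minus sensitive) of every measured gene of the members and of 6 gene lists (horizontal axis) in the 3 pairs. Filled points have an adjusted p below 0.05, black lines are medians of the fitted values, and genes at the floor in both lines are not drawn. In the PEA pair the members have a median of 3.93 and the activators of epithelial genes one of 3.2, whereas the plaque and scaffold proteins are split around 0.11.

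Several regulators of the epithelial programme were split between lines along the same boundary as CLDN3, CLDN4 and CLDN7. In the PEA pair all 10 activators of epithelial genes rose, beside 32.5% of all genes (median log2FC 3.2, or 2.21 with genes at the floor set to their bound). Among them, OVOL1 had 0 reads in PEA1 and only 1, 5 and 5 in PEA2, with a lower bound of 0.245-fold. GRHL2, a grainyhead-like factor that binds claudin genes, had no read in A2780, CP70 or PEA1 and 91, 178 and 80 in PEA2 (at least 16.8-fold, adjusted p = 3.43e-13). ESRP1, the epithelial splicing regulator, went from 0 reads in PEA1 to 660, 1181 and 664 (at least 139-fold, adjusted p = 3.4e-14), and EHF, an ETS factor of epithelia, from 0 to 989, 1700 and 1072 (at least 225-fold, adjusted p = 3.49e-12). GRHL2 and ESRP1 stood at 6.51 and 8.39 log2 CPM in PEO1 and at 7.01 and 8.71 in PEO4. Not all activators followed this boundary. KLF5, ELF3, KLF4, ESRP2 and GRHL1 were above the floor in PEA1, and EHF stood at 7.17 log2 CPM in PEO1 but at 0.54 in PEO4.

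Of the 5 listed repressors, 3 fell in the PEA pair and 0 rose, also at an unadjusted p under 0.05, beside 29.4% and 32.5% of all genes. Their median log2FC was -3.26, or -1.42 with genes at the floor set to their bound. ZEB1, which represses E-cadherin and other junction genes, had 134, 174 and 196 reads in PEA1 and 0, 1 and 0 in PEA2 (at least 60.8-fold lower, adjusted p = 4.44e-13). ZEB1 was also at the floor in PEO1 and PEO4 and present in A2780 and CP70, at 5.87 and 5.11 log2 CPM. The lines with ZEB1 were those in which CLDN3, CLDN4 and CLDN7 were at the floor, but OCLN reached 6.98 log2 CPM in CP70. Other listed repressors did not follow this boundary. ZEB2 was above the floor in PEA1 alone, while TWIST2 was at the floor only in A2780, TWIST1 only in PEA2 and SNAI2 only in PEO4. An effect of any repressor on the members was not tested. ZEB2 fell with ZEB1 in the PEA pair (at least 7.55-fold, adjusted p = 5.73e-07), as did TWIST1 (at least 2.67-fold, adjusted p = 3.24e-06).

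In the A2780 pair, where CLDN3, CLDN4 and CLDN7 stayed at the floor, 6 of the 10 activators were at the floor in both lines. Of the 4 measured, GRHL1 and KLF4 passed the test as higher in CP70, beside 22.2% of all genes. GRHL1 had 3, 4 and 3 reads in CP70 and overlapped with A2780 (lower bound 0.367-fold, adjusted p = 0.0182). KLF4 had at most 5 reads in a CP70 library (lower bound 0.196-fold, adjusted p = 9.17e-05). Neither bound shows a rise, and the median log2FC of the 4 was 0.94, or 0 with genes at the floor set to their bound. SNAI2 (Slug) fell from 128, 230 and 106 reads to 7, 9 and 5 (log2FC -4.88, adjusted p = 3.61e-07) and TWIST1 fell by 3.10 on the log2 scale (adjusted p = 1.13e-05), while TWIST2 rose from 0 reads to 92, 53 and 57 (at least 9.37-fold, adjusted p = 9.8e-11). ZEB1 was lower in CP70 but did not pass (log2FC -0.76, adjusted p = 0.128). In the PEO pair, 1 activator rose and 3 fell, beside 19.6% and 21.9% of all genes. EHF fell from 446, 395 and 963 reads to 2, 3 and 7 (log2FC -6.63, adjusted p = 9.83e-09), with OVOL2 and KLF4 (log2FC -2.21 and -1.71, adjusted p = 0.00286 and 0.00108). Of the 3 repressors measured there, SNAI2 passed as lower, at 3, 4 and 15 reads in PEO1 and at most 1 in PEO4 (adjusted p = 0.00379). The lower bound for SNAI2 was 0.805-fold, so its fall is not shown by the bound. TWIST2 fell (log2FC -1.24, adjusted p = 0.0231) and TWIST1 rose (log2FC 1.39, adjusted p = 0.0173).

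**Figure D5:**
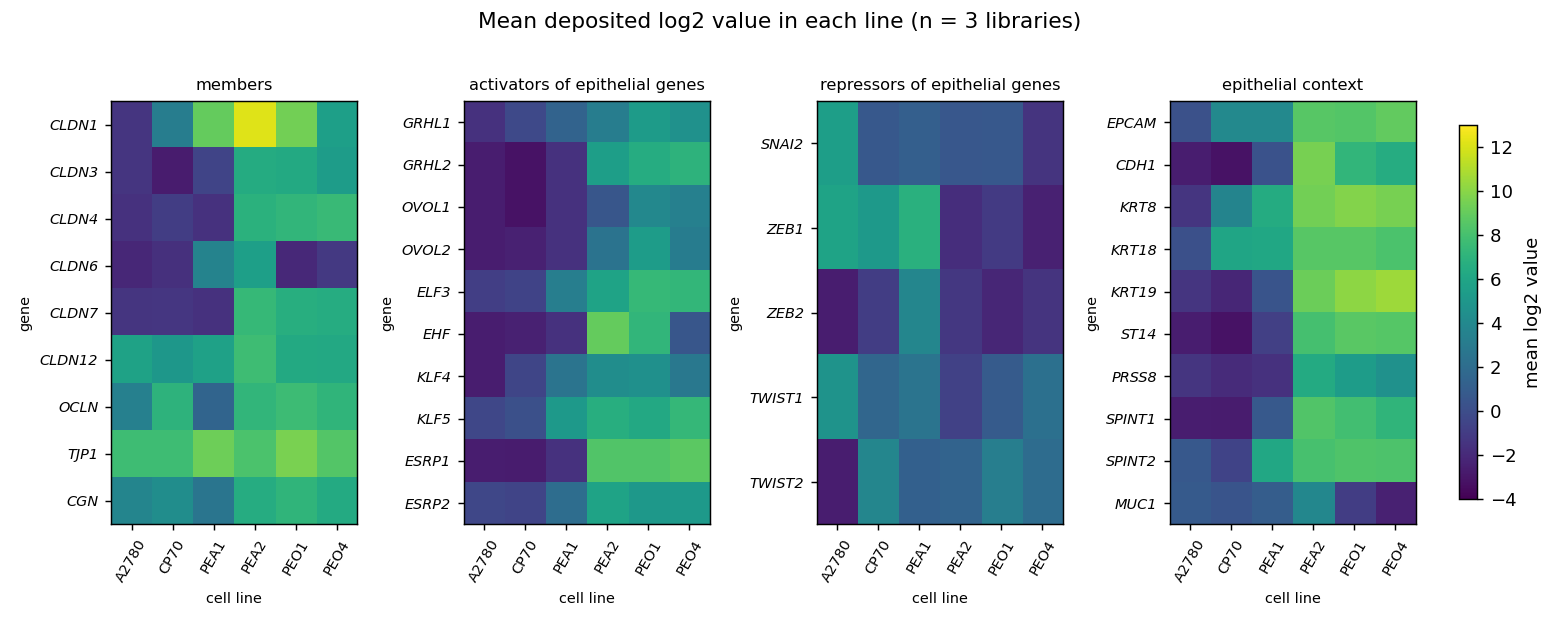
Mean deposited log2 CPM (color scale) of the members, of activators and repressors of epithelial genes and of other epithelial genes (rows) in the 6 cell lines (columns, n = 3 libraries each). CLDN3, CLDN4, CLDN7, GRHL2, ESRP1 and CDH1 are dark in A2780, CP70 and PEA1 and light in PEA2, PEO1 and PEO4, and ZEB1 shows the reverse.

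Other epithelial genes moved with the members in the PEA pair, where all 10 listed rose, beside 32.5% of all genes. Their median log2FC was 6.1, or 4.88 with genes at the floor set to their bound, beside a fitted 3.93 over the members. CDH1 went from 2, 4 and 0 reads to 1416, 2187 and 1867 (at least 221-fold, adjusted p = 1.99e-11), KRT19 rose at least 255-fold (adjusted p = 3.07e-12) and ST14 (matriptase, a membrane protease) at least 104-fold (adjusted p = 4.44e-13). In the A2780 pair, 5 of the 10 were measured, of which 3 rose and 1, SPINT2, fell, beside 22.2% and 17.7% of all genes. KRT18, KRT8 and EPCAM rose (at least 45.4-fold, at least 8.24-fold and by a log2FC of 3.77, adjusted p = 5.34e-17, 6.72e-10 and 6.09e-13). In the PEO pair, EPCAM rose (log2FC 0.46, adjusted p = 0.0402), and the other 8 of the 9 measured did not pass. Of all genes, 19.6% rose and 21.9% fell there.

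Markers of other cells moved in all 3 pairs. Among the 5 mesenchymal markers, VIM and CDH2 fell from PEA1 to PEA2 (log2FC -4.47 and -2.06, adjusted p = 8.48e-16 and 2.08e-06) and ZEB1 with them, whereas FN1 and SPARC rose (log2FC 4.21 and 5.64, adjusted p = 4.55e-11 and 1.34e-13). Their summed level was 5128 to 5230.1 CPM in PEA1 and 37890.5 to 49053 CPM in PEA2, and this direction rests on FN1: the other 4 summed to 2726 to 3069 CPM in PEA1 and 304 to 358 CPM in PEA2. PTPRC, the leukocyte marker listed of 5, had 47, 70 and 46 reads in PEA2 and at most 2 in any library of the other lines. CDH5, the endothelial marker listed of 5, had 66, 88 and 79 reads in PEA2 and at most 1 elsewhere. Of the 5 fibroblast markers listed of 6, COL1A1 fell from 616, 513 and 649 reads in PEA1 to 7, 11 and 9 in PEA2 (log2FC -6.67, adjusted p = 9.02e-12), and the other 4 were at the floor in both PEA lines. The fibroblast sum was 366 to 447 CPM in PEA1 and 3.45 to 6.40 CPM in PEA2.

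In the A2780 pair, COL1A2, DCN and LUM, matrix genes of fibroblasts, rose (COL1A2 at least 9.81-fold, DCN and LUM by a log2FC of 3.37 and 3.86, adjusted p = 1.06e-07, 4.96e-05 and 2.63e-05), and the fibroblast sum was 509.5 to 719.9 CPM in A2780 and 869 to 1009 CPM in CP70, most of it COL3A1. Of the mesenchymal markers, VIM and FN1 rose (log2FC 0.45 and 1.39, adjusted p = 0.00938 and 0.000229), CDH2 and SPARC fell (log2FC -1.63 and -3.16, adjusted p = 6.62e-05 and 7.8e-10), and their sum was 2248 to 2653 CPM in A2780 and 2858 to 3043 CPM in CP70.

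COL3A1 in the PEO pair went from 0 reads in all 3 PEO1 libraries to 193, 189 and 156 in PEO4 (at least 58.8-fold, adjusted p = 4.84e-14) and COL1A2 rose at least 7.09-fold (adjusted p = 1.94e-06), and the fibroblast sum was 3.26 to 7.39 CPM in PEO1 and 77.5 to 84.1 CPM in PEO4. VIM rose (log2FC 1.71, adjusted p = 2.97e-09) and FN1 fell (log2FC -1.36, adjusted p = 0.000301), with a mesenchymal sum of 558 to 651 CPM in PEO1 and 383 to 410.03 CPM in PEO4. The part of these genes' sources in the changes of the members was not tested in any pair.

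The genes whose pattern over the 18 libraries lay closest to each member were found by Pearson's r among 12000 genes, as a description, since the libraries share 6 lines. CLDN7 was closest to PRSS8 (prostasin, a membrane-anchored protease; r = 0.994) and ESRP1 (r = 0.981). CLDN3 was closest to FGFBP1 and KCNK1 (r = 0.986 and 0.985), and CLDN4 to KRTCAP3 and UCA1 (r = 0.987 and 0.984). CLDN1 was closest to INHBA, the activin beta A subunit (r = 0.976), and SPSB1 (r = 0.975).

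For OCLN the closest genes were SSU72 and KIAA1244 (r = 0.98 and 0.976), for CGN ZNF165 and SORL1 (r = 0.961 and 0.958), and for CLDN12 CLINT1 and TM7SF3 (r = 0.962 and 0.96). CLDN6 was closest to PRNP and QPCT (r = 0.957 and 0.954), and TJP1 to DOCK2 and CCBE1 (r = 0.961 and 0.953). Among the members, CLDN3, CLDN4 and CLDN7 were closest to each other (r = 0.95 to 0.97), and CGN lay close to CLDN4 (r = 0.94). OCLN was closer to CGN (r = 0.86) than to CLDN1 (r = 0.26), and TJP1 had an r of -0.08 with OCLN.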

How the data were processed

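Total RNA depleted of rRNA was sequenced with a directional kit from 6 lines with 3 libraries each. The authors deposited log2 CPM values for 12853 genes. The submitters' processing notes name Bowtie2, featureCounts, limma and hg19, without versions. Each deposited log2 value is the logarithm of reads plus 0.5 over a scaled library size. Whole reads were recovered from these values (tolerance 0.02 reads) and gave the depth, the floor of 3 reads and RPKM over exonic lengths, which were found for 12642 of 12853 gene identifiers. Floors cover counting error only.

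limma 3.58.1 in R 4.3.3 was fitted once to all 18 libraries, with a mean per line and a trend of variance with mean expression. Adjustment was Benjamini-Hochberg over all genes, with limits of 0.05 and, for differential expression, 2 on the log2 scale. The calculations were tested on simulated data in which only genes well above the floor were changed, so changes from the floor were not covered. Members, gene lists, promoter motifs and tests were chosen with earlier results of these data known. Named genes were the members, the neighbouring claudin, up to 3 genes of each list with the largest log2FC in each pair among those that passed without overlap, and the 2 genes closest to each member. Markers, GRHL1, SPINT2 and RefSeq E-box windows are added as checks. A gene first placed in the list of other epithelial genes is not reported here, and that list's counts are without it.

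Alternatives were each pair fitted alone, a mean log2 value above 0, quantile normalization, a replicate block, no trend, 2 reads added, voom weights, other log2FC limits, log2 CPM in place of RPKM, and each library left out. Libraries of the same line were not duplicates, since their reads varied beyond sampling noise (chi-square per degree of freedom, 1.74 to 13.53). The other data types of the study were not analysed here.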

Additional observations from a re-analysis of the deposited data

Results flagged for a closer look

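Results are listed here because the log2FC of a member differed between pairs by a test of the difference itself (limma, adjusted p below 0.05 over all genes). No explanation was weighed.

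For CLDN1 the log2FC in the PEO pair was lower than in the A2780 pair by 8.31 and than in the PEA pair by 6.93 (differences of -8.31 and -6.93). The PEA pair against the A2780 pair gave -1.38 (adjusted p = 0.00277), but A2780 was at the floor, and this difference did not pass with 2 reads added (-0.20, adjusted p = 0.418), with quantile normalization (-0.27, adjusted p = 0.68) or with voom weights (-1.32, adjusted p = 0.0792).

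For CLDN3, CLDN4 and CLDN7, the PEA pair minus the A2780 pair gave 8.31, 7.71 and 8.98, where both A2780 lines and PEA1 were at the floor, and the PEO pair minus the PEA pair gave -7.94, -8.12 and -9.17. The sizes of these depend on the reads added before the logarithm.

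For CLDN12 the differences were 2.79 (PEA minus A2780), 0.74 (PEO minus A2780) and -2.05 (PEO minus PEA). For OCLN they were 2.10, -4.08 and -6.19, and for CGN 3.36, -1.29 and -4.65 in the same order. For TJP1 the log2FC was lower in the PEA and PEO pairs than in the A2780 pair (-1.02 and -1.14).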

How the results depend on the processing

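Counts of members that changed held within 1.5 times under every alternative run, with these exceptions, all in the PEO pair. The 3 members that changed there became 6 with each pair fitted alone, 5 with 2 reads added and 5 with voom weights (50.4%, 43.9% and 48.5% of all genes, beside 41.5%). The 1 differentially expressed member became 2 at a log2FC limit of 1, where 2418 of 12853 genes passed, beside 800 at a limit of 2. The cause was not tested. TJP1 in the A2780 pair, which did not pass, turned from -0.02 to 0.04 with quantile normalization, without the second A2780 library and without the first CP70 library. Leaving out 1 library at a time gave 2 (A2780 pair), 6 to 8 (PEA pair) and 1 (PEO pair) differentially expressed members, and 3 to 4, 8 to 9 and 2 to 4 that changed. Differences between pairs then passed for 8 members (PEA against A2780), 5 to 6 (PEO against A2780) and 7 (PEO against PEA).

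Replicate numbers did not pair the samples: same-numbered libraries of a pair deviated with a mean r of 0.0157, 0.00176 and 0.0150 over 12498 genes (A2780, PEA and PEO pairs). With the replicate block 3, 9 and 3 members changed, as without it, so the block changed no call among the members. Quantile normalization moved the median log2FC of all genes in the PEA pair from 0.01 to -0.10. Ranked by log2 CPM in place of RPKM, 34 of 54 ranks of a member within a line moved. PEA1 libraries were the shallowest, and 3 reads there correspond to 1.73 to 2.18 CPM, so a claudin below that level would not be seen.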

Other observations

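Some genes outside the members, from the junction, polarity and epithelial lists, moved in 1 direction in all 3 pairs. Of the 67 genes of the members and lists together, 4 rose in every pair and 1 fell in every pair (5.97% and 1.49%), beside 205 and 155 of all 12853 genes (1.59% and 1.21%), and 0 of the 9 members did either. The genes that rose were CXADR, LLGL2, PARD6B and EPCAM, and AMOT fell. They were singled out after their values were seen, and no test of the overlap was made.

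CXADR, an adhesion protein of the junction that serves as a virus receptor, rose by similar amounts, with a log2FC of 1.47, 1.57 and 1.61 in the A2780, PEA and PEO pairs (limma, adjusted p = 7.65e-08, 1.79e-08 and 3.69e-08). Its values were 4.40, 4.68 and 4.83 log2 CPM in A2780 and 6.11, 6.20 and 6.02 in CP70. They were 5.81, 6.04 and 6.12 in PEA1 and 7.15, 7.74 and 7.79 in PEA2. In PEO1 they were 5.37, 5.15 and 5.20 and in PEO4 6.81, 6.87 and 6.87. AMOT, which binds actin and the junction scaffold, fell by 1.61, 1.11 and 0.95 on the log2 scale in the A2780, PEA and PEO pairs (adjusted p = 8.64e-05, 0.00168 and 0.00885).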
